A study of Rattus norvegicus with 18 samples.

Results

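The earliest germ cells of this rat series, primordial germ cells (PGC) at embryonic day (E) 9.5, were compared with epiblast of E7.75, the layer of the embryo from which germ cells are set aside. The libraries were chosen by the stage and cell type in their titles, which gave 5 of the 18 libraries of the series: 2 of E9.5 PGC, with no sex labelled, and 3 of E7.75 epiblast, of which 2 were labelled male and 1 female. All carried the genotype Prdm14-Venus, a fluorescent reporter of the germ line regulator Prdm14, in strain Crlj:WI, so the epiblast had the reporter as well. The RNA came from small samples amplified with SMART-Seq v4, and values are RPKM, read counts divided by gene length and by the library's mapped reads. How the cells were isolated, and how many embryos each library holds, is not given in the sources used here. Stage and cell type changed together between the groups and cannot be told apart. Nothing in the labels says that the libraries of a group came from separate litters, so the p-values reflect how far these particular samples spread.

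In rodents, BMP signals from the extraembryonic tissues induce a few cells of the proximal posterior epiblast to become PGC. The transcription factors Prdm1, Prdm14 and Tfap2c then repress the somatic program that these cells share at first with the nascent mesoderm, keep or restore part of the pluripotency network, and start the erasure of DNA methylation. The young PGC gather near the base of the allantois, among extraembryonic mesoderm and the first vessels, and move from there into the hindgut. Epiblast of the same embryos carries high levels of the de novo DNA methyltransferases and gives rise to all 3 germ layers.

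Of 32545 lines in the table, 12515 had at least 1 RPKM in at least 2 of the 5 libraries and were tested with limma on log2(RPKM + 1). At an adjusted p under 0.05 (Benjamini-Hochberg), 1815 genes rose in E9.5 PGC, which is 14.5% of those tested, and 1255 fell, which is 10.0%. These shares are the background for the list counts below. With the libraries rescaled to the same median, 1265 rose and 1942 fell, and with the same column sum 2348 rose and 1017 fell, so the balance of the directions depends on the scaling. These scalings moved the median difference of all genes by -0.24 and 0.14 from its value of 0.09 as deposited. Both E9.5 libraries lay above all 3 epiblast libraries for 31.7% of the tested genes and below all 3 for 23.3%. Leaving out any 1 epiblast library lowered the number of genes that passed from 3070 to 1539 without male replicate 1, 1641 without male replicate 2 and 1499 without the female library. Without E9.5 replicate 1 or 2, 1 E9.5 library is left, and all spread in the fit comes from the epiblast libraries. Counts and p-values of these runs given below therefore hold no E9.5 spread. They cannot show whether a call is stable, and a higher count in them is not a stronger result.

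The E9.5 libraries were less alike than the epiblast libraries, with a median absolute difference of 0.427 in log2(RPKM + 1) against 0.257 to 0.271 among the epiblast libraries. Their depth, estimated by the ratio to the female epiblast library at which low values pile up, was 105% and 103% of it, and that of the male libraries 102% and 82.6%. Some genes that nearly all cells use were listed near 0 in every library, such as Fau at 0 in all 5 and Gapdh between 0.296 and 2.08 RPKM. For this reason zeros are reported as listed, and no fold is given against it. Differences below are in log2(RPKM + 1), E9.5 minus E7.75, with their standard error.

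The label of the E9.5 libraries was checked with Tfap2c, Prdm1 and Nanos3, and all 3 were high in both. Tfap2c, an AP-2 transcription factor of the germ line, stood at 206 and 287 RPKM in E9.5 PGC, against 0, 0.0234 and 0.0774 RPKM in epiblast (difference 7.88 ± 0.30, limma adjusted p = 0.000143). Nanos3, an RNA-binding protein that PGC need to survive, stood at 84.1 and 62.5 RPKM in E9.5 PGC, against 0.0559, 0.622 and 0.913 RPKM in epiblast (5.63 ± 0.38, limma adjusted p = 0.00052). Prdm1, the repressor that starts PGC specification in mice, stood at 23.4 and 26.2 RPKM in E9.5 PGC, against 0, 0.119 and 0 RPKM in epiblast (4.63 ± 0.33, limma adjusted p = 0.000526). The groups did not overlap for any of these genes. The start sites of the last 2 genes are shown because they carry the label, in RefSeq sequence of build GRCr8, from 250 bases before the start to 50 after it, in the direction of the gene, with CG dinucleotides in capitals. The RefSeq table gives no promoter for Tfap2c.
Prdm1, chr20:49564039-49564338, minus strand: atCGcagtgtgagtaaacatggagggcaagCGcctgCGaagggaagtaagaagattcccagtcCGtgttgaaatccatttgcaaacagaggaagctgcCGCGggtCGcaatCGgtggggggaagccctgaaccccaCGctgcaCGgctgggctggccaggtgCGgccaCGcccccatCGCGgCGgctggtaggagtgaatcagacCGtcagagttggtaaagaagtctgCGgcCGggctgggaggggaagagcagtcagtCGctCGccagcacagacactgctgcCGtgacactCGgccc
Nanos3, chr19:40890022-40890321, plus strand: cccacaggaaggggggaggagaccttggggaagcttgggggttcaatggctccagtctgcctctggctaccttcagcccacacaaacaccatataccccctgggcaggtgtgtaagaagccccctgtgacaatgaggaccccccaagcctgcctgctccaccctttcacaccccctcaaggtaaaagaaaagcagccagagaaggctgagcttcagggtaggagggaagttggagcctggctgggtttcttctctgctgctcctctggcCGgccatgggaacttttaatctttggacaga
The window of Prdm1 holds 22 CG and that of Nanos3 holds 1, beside a median of 7 over all 33469 promoters of the table. The letters GGCGCC, which SMAD proteins can bind, occur on either strand of 11.02% of all promoters, and TATAAA on either strand of 14.2%. Neither is present in these windows.

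**Figure D1:**
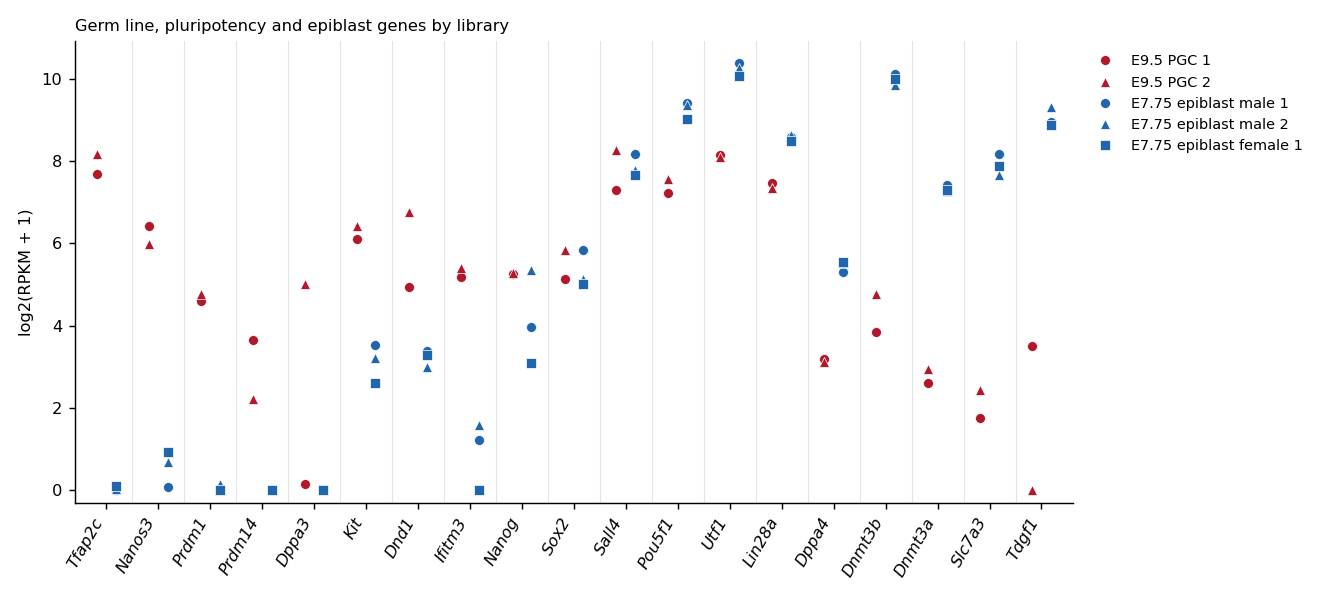
Level of 19 germ line, pluripotency and epiblast genes in log2(RPKM + 1), with 1 point per library, red for the 2 E9.5 PGC libraries and blue for the 3 E7.75 epiblast libraries, and the marker shape giving the replicate. Tfap2c, Nanos3 and Prdm1 are high only on the red side, Dnmt3b, Slc7a3 and Tdgf1 on the blue side, and Dppa3 has 1 red point at 31.3 RPKM and 1 near 0.

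Other genes of PGC identity moved in both directions. Of 20 on the list 18 were tested, 9 rose and 3 fell, with a median difference of 1.36 beside 0.09 for all tested genes. In runs that left out 1 epiblast library, 7 or 8 rose and 3 fell. Of the 18, 4 were under 1 RPKM in every epiblast library, among them Tfap2c, Nanos3 and Prdm1. They passed the filter only by being high at E9.5. Kit, the receptor through which PGC receive survival signals, stood at 67.9 and 85.3 RPKM in E9.5 PGC, against 10.5, 8.23 and 5.14 RPKM in epiblast (3.15 ± 0.31, limma adjusted p = 0.00153). Dnd1, an RNA-binding partner of the NANOS proteins, stood at 29.6 and 107 RPKM against 9.45, 7.01 and 8.69 RPKM (2.63 ± 0.51, limma adjusted p = 0.0135). Both genes were higher in each E9.5 library than in any epiblast library. Ifitm3, an interferon-induced membrane protein long used to mark PGC in mice, stood at 35.5 and 41.4 RPKM in E9.5 PGC, against 1.32, 2.01 and 0 RPKM in epiblast (4.36 ± 0.52, limma adjusted p = 0.00279).

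Prdm14, the gene the reporter is named for, was lower in RPKM than its partners in E9.5 PGC. It stood at 11.5 and 3.64 RPKM, and was listed at 0 in all 3 epiblast libraries (limma adjusted p = 0.00749). Dppa3, a maternal-effect protein of germ cells and early embryos also called Stella, was listed at 0.106 RPKM in E9.5 replicate 1 and at 31.3 RPKM in replicate 2, and at 0 in the epiblast. With 1 library under 1 RPKM it did not pass the filter and was not tested. Sall4, a zinc finger factor of germ cells and epiblast, stood at 155 and 309 RPKM in E9.5 PGC, against 289, 221 and 201 RPKM in epiblast. For Sall4 the groups overlapped, with a difference of -0.09 ± 0.30 (limma adjusted p = 0.848).

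The 3 members that fell are genes of pluripotent cells. Dppa4, a chromatin protein of pluripotent cells, stood at 8.17 and 7.75 RPKM in E9.5 PGC, against 38.5, 44.8 and 46.0 RPKM in epiblast (-2.29 ± 0.20, limma adjusted p = 0.0011). Lin28a, an RNA-binding protein that blocks let-7 maturation, fell by 1.15 ± 0.12 (limma adjusted p = 0.00201). Hesx1, a homeobox gene, stood at 0 and 0.782 RPKM against 4.62, 6.77 and 5.11 RPKM (-2.27 ± 0.40, limma adjusted p = 0.01).

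The pluripotency network split into genes that fell, genes that rose and genes whose groups overlapped. Pou5f1, which encodes OCT4, stood at 147 and 189 RPKM in E9.5 PGC, against 679.8, 656 and 523 RPKM in epiblast (-1.88 ± 0.18, limma adjusted p = 0.00135). Utf1, a chromatin factor of pluripotent cells, stood at 283 and 274 RPKM against 1339.5, 1226 and 1079.6 RPKM (-2.12 ± 0.14, limma adjusted p = 0.00052). Both remained among the well-detected genes in E9.5 PGC while falling below every epiblast library. Nanog stood at 37.0 and 37.6 RPKM in E9.5 PGC, inside the range of the epiblast libraries, which held 14.7, 39.6 and 7.49 RPKM. Sox2 overlapped as well, with 34.4 and 56.7 RPKM in E9.5 PGC against 56.0, 34.2 and 31.2 RPKM in epiblast.

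Of 12 tested members of this network 4 rose and 3 fell, with a median of 0.18, beside 14.5% and 10.0% of all tested genes. The third fall was Tdgf1, the NODAL co-receptor, and it was the largest of all genes named by the rule. Tdgf1 stood at 10.4 and 0 RPKM in E9.5 PGC, against 492, 632 and 469 RPKM in epiblast (-7.29 ± 0.89, limma adjusted p = 0.00314). The genes that rose were Tbx3, Nr5a2, Esrrb and Klf5, transcription factors of the naive network in mouse. Nr5a2 stood at 5.17 and 5.38 RPKM in E9.5 PGC, against 0, 0 and 0.00649 RPKM in epiblast, and Esrrb at 4.79 and 5.19 RPKM against 0, 0 and 0.167 RPKM. Tbx3, which is a BMP target in mesoderm too, stood at 36.2 and 52.1 RPKM and was listed at 0 in the epiblast. These 4 genes passed with adjusted p-values of 0.00052 to 0.0054 (limma) and in each run without 1 epiblast library. However, 4 of the 12 tested members, among them Tbx3, Nr5a2 and Esrrb, were under 1 RPKM in every epiblast library. They passed the filter only by being high at E9.5.

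Genes of the formative and primed state, which marks epiblast that is competent for all lineages, fell in E9.5 PGC for the most part. Of 13 tested 0 rose and 10 fell, and their median was -2.92. Without 1 library, 8 to 10 fell. Slc7a3, a cationic amino acid transporter, stood at 2.36 and 4.45 RPKM in E9.5 PGC, against a mean of 241 ± 44.9 RPKM in epiblast (SD, n = 3; -5.81 ± 0.26, limma adjusted p = 0.000183). Otx2, Pou3f1 and Foxd3 were not analysed here, and Fgf5, a classical epiblast marker in mouse, was listed at 0 in all 5 libraries. Trh, the highest member that did not pass, stood at 9.34 and 48.5 RPKM in E9.5 PGC and at 21.0, 30.7 and 32.2 RPKM in epiblast.

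All 3 de novo methyltransferase genes fell. Dnmt3b stood at 13.5 and 26.2 RPKM in E9.5 PGC, against 1103, 915 and 1019.5 RPKM in epiblast (-5.67 ± 0.26, limma adjusted p = 0.000188). Dnmt3a stood at 5.13 and 6.77 RPKM against 171, 154 and 157 RPKM (-4.55 ± 0.18, limma adjusted p = 0.000143). Dnmt3l, the cofactor without catalytic activity, stood at 0 and 0.797 RPKM against 18.04, 17.6 and 23.9 RPKM (-3.95 ± 0.38, limma adjusted p = 0.00147). Each of these genes was low in both E9.5 libraries, and the groups were far apart.

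The 2 genes of maintenance methylation differed from each other. Uhrf1, which brings DNMT1 to replicating DNA, fell, with 20.0 and 18.5 RPKM in E9.5 PGC against 71.8, 62.3 and 52.9 RPKM in epiblast (-1.63 ± 0.19, limma adjusted p = 0.0027). Dnmt1 itself overlapped between the groups, with 32.5 and 42.0 RPKM in E9.5 PGC against 40.2, 50.5 and 40.4 RPKM in epiblast (-0.23 ± 0.20, limma adjusted p = 0.437). Mbd2, a reader of methylated CG, was the 1 member of the 12 on this list that rose (2.11 ± 0.22, limma adjusted p = 0.00186). Of 9 tested genes of demethylation 2 rose and 2 fell. The number that rose was 1 without E9.5 replicate 1 and 0 without replicate 2, and the number that fell was 3 without E9.5 replicate 2 and 1 without any other library. Gadd45a, a stress-induced gene linked to DNA repair, stood at 84.0 and 80.1 RPKM against 26.2, 23.3 and 37.4 RPKM, and its adjusted p of 0.00638 became 0.0636 without E9.5 replicate 1 and 0.0598 without replicate 2 (limma). Tet1, an enzyme that oxidises methylcytosine, stood at 3.62 and 6.28 RPKM in E9.5 PGC, against 10.5, 10.8 and 14.9 RPKM in epiblast, and did not pass (limma adjusted p = 0.0513). Of 24 enzymes of histone methylation 2 rose and 0 fell, with a median of -0.20, beside 14.5% and 10.0% of all tested genes. The call of Suz12 ended when any 1 epiblast library was left out. That of Kdm3a ended without male replicate 1 or the female library. With the same median 0 rose and 2 fell, and with quantile normalization 0 rose and 0 fell.

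Most BMP response genes were higher in E9.5 PGC. Of 15 tested response targets 14 rose and 0 fell, with a median of 3.63, and 12 or 13 rose without 1 library, with 1 that fell without E9.5 replicate 2. Of these 15, 8 were under 1 RPKM in every epiblast library and so passed the filter through E9.5 alone. Hand1, a bHLH factor of extraembryonic and lateral mesoderm, stood at 261 and 245 RPKM in E9.5 PGC and was listed at 0 in all epiblast libraries (limma adjusted p = 0.000143). Msx1, a homeobox gene, stood at 378 and 391 RPKM against 1.46, 4.99 and 1.70 RPKM (6.82 ± 0.40, limma adjusted p = 0.000499). Msx2 stood at 248 and 209 RPKM against 0.287, 0.939 and 0.792 RPKM (7.12 ± 0.30, limma adjusted p = 0.000159). These values put both E9.5 libraries far above the epiblast.

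The Id genes encode inhibitors of bHLH factors and are direct BMP targets with some level in epiblast already. Id1 stood at 646 and 432 RPKM in E9.5 PGC, against 37.4, 73.7 and 70.0 RPKM in epiblast (3.17 ± 0.32, limma adjusted p = 0.00172). Id2 rose by 2.85 ± 0.24 and Id3 by 1.38 ± 0.17 (limma adjusted p = 0.000935 and 0.00328). Satb1, a chromatin organiser, was the target that did not pass, with 2.51 and 14.8 RPKM in E9.5 PGC against 14.3, 10.5 and 12.03 RPKM in epiblast.

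Among BMP ligands, receptors, SMADs and inhibitors 7 of 18 tested genes rose and 2 fell, with a median of 0.96; 4 rose without E9.5 replicate 1, and 1 fell when any 1 library was left out. The ligand gene Bmp4 stood at 159.6 and 142 RPKM in E9.5 PGC, against 6.11, 8.08 and 3.39 RPKM in epiblast (4.53 ± 0.33, limma adjusted p = 0.000597). Bmp7, another ligand, stood at 44.9 and 94.7 RPKM against 0.706, 0.487 and 1.22 RPKM (5.22 ± 0.42, limma adjusted p = 0.000817). Bambi, a decoy receptor that BMP signals induce, stood at 530.0 and 446 RPKM against 28.4, 21.3 and 26.3 RPKM (4.22 ± 0.18, limma adjusted p = 0.000159). Ligands and feedback inhibitor were thus all higher in both E9.5 libraries. Nbl1, a secreted BMP antagonist, fell by 1.89 ± 0.32 (limma adjusted p = 0.00901).

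NODAL signalling, which patterns the epiblast, moved the other way in its ligand and co-receptor. Besides Tdgf1, Nodal stood at 0 and 2.29 RPKM in E9.5 PGC, against 18.5, 23.1 and 9.66 RPKM in epiblast (-3.24 ± 0.60, limma adjusted p = 0.012). Without E9.5 replicate 1 its adjusted p was 0.0762 (limma). Gdf1, a partner ligand of NODAL, fell by 1.89 ± 0.29 (limma adjusted p = 0.00619). Of 12 tested genes of this pathway 2 rose and 3 fell. Only 1 rose when any epiblast library was left out.

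Of 24 tested WNT genes 11 rose and 5 fell, with a median of 0.82. The number that rose was 5 without E9.5 replicate 2, 6 without replicate 1, 6 without male replicate 1 and 7 without either other epiblast library. Wnt5a, a ligand of the growing posterior end of the embryo, stood at 49.99 and 61.0 RPKM in E9.5 PGC, against 0, 0 and 0.0255 RPKM in epiblast (5.80 ± 0.32, limma adjusted p = 0.000414). T, the mesoderm factor brachyury, stood at 57.0 and 62.0 RPKM against 0.321, 5.58 and 0.414 RPKM (4.71 ± 0.71, limma adjusted p = 0.00612). The call of T ended without E9.5 replicate 1 or 2 (limma adjusted p = 0.0782 and 0.0808), where its difference was 4.77 and 4.65. Fzd2, a WNT receptor, fell by 2.67 ± 0.20 (limma adjusted p = 0.000661).

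FGF, NOTCH and retinoic acid genes rose in smaller numbers. In the FGF list 5 of 19 rose, with 1 without E9.5 replicate 2 and 2 without replicate 1, male replicate 1 or the female library, and 0 fell. Fgf3, a ligand of the primitive streak, stood at 68.8 and 20.7 RPKM in E9.5 PGC, against 0, 0 and 1.60 RPKM in epiblast (4.82 ± 0.66, limma adjusted p = 0.00447). In the NOTCH list 5 of 13 rose, and 3 without E9.5 replicate 1. Hey2, a NOTCH target, rose by 4.02 ± 0.39 (limma adjusted p = 0.00147). Of 13 genes of retinoic acid and hedgehog signalling 6 rose. Aldh1a2, the enzyme that makes retinoic acid in mesoderm, stood at 39.9 and 102 RPKM against 0, 0.865 and 0.625 RPKM (5.49 ± 0.51, limma adjusted p = 0.00128), and Crabp1, which binds it in the cytoplasm, rose by 2.96 ± 0.27 (limma adjusted p = 0.00126).

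**Figure D2:**
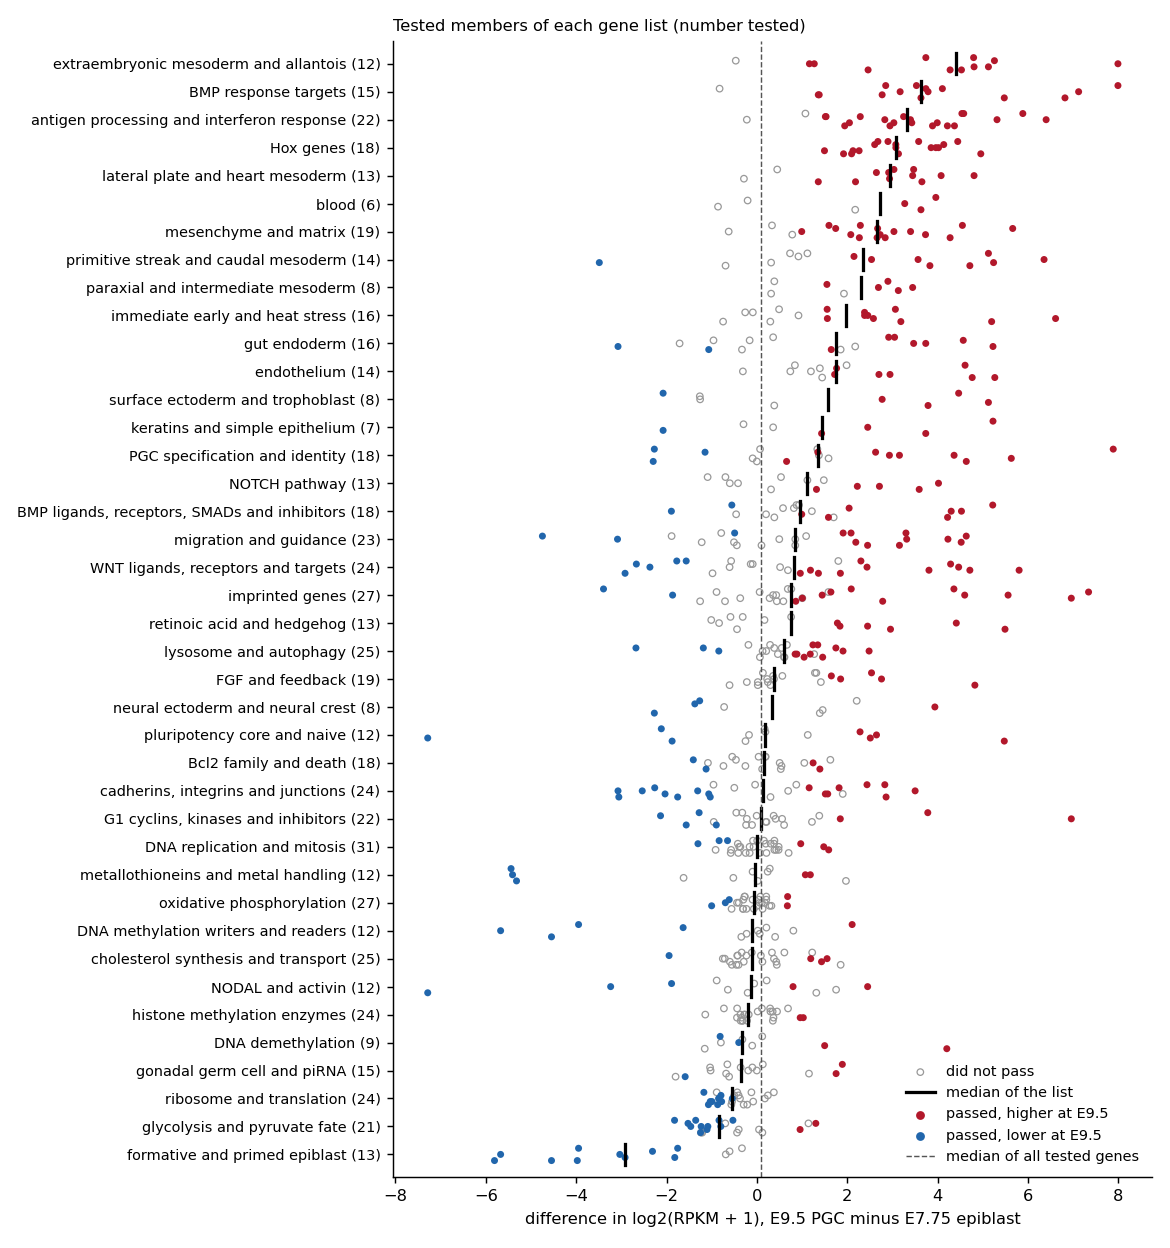
Difference in log2(RPKM + 1), E9.5 PGC minus E7.75 epiblast, of every tested member of 40 gene lists, with filled points for genes that passed (red higher, blue lower), open points for the others, a black bar at each list's median and a dashed line at 0.09, the median of all tested genes. Allantois genes have the highest median at 4.40 and formative epiblast genes the lowest at -2.92.

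Because young PGC lie within the allantois and its vessels, markers of those neighbours were read in each E9.5 library on its own. In bulk RNA, fewer cells of a type and less RNA per cell cannot be told apart. The 24 vessel genes in the table summed to 523 RPKM in E9.5 replicate 1 and to 181 RPKM in replicate 2, against 51.3 to 55.8 RPKM in epiblast. At 0 were 3 of the 24 in replicate 1, 8 in replicate 2 and 13 or 14 in the epiblast libraries. Of the 14 tested, 13 were higher in replicate 1 than in replicate 2, with a median difference of 1.47, while the same difference over all tested genes had a median of 0. The list thus stood above the epiblast in both libraries and was higher in the first.

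The defining vessel markers were not alike. Kdr, the VEGF receptor of vessel precursors, stood at 55.2 and 25.3 RPKM in E9.5 PGC and was listed at 0 in the epiblast (limma adjusted p = 0.000792). Etv2, the ETS factor that starts the vessel and blood program, was nearly equal in both, at 73.9 and 65.8 RPKM, against 1.55, 1.28 and 2.02 RPKM in epiblast (4.76 ± 0.29, limma adjusted p = 0.000499). Markers of more mature vessel were found almost only in replicate 1: Cldn5, a tight junction protein, at 27.4 RPKM and Cdh5, the vessel cadherin, at 2.83 RPKM were both listed at 0 in replicate 2 and in the epiblast. Tek, a receptor kinase of vessel, stood at 8.26 and 1.24 RPKM against 0, 0.0255 and 0.491 RPKM and did not pass (limma adjusted p = 0.0578). Pecam1 was not analysed here. Of the 14 tested vessel genes 7 rose, with 10 without E9.5 replicate 2 and 4 without male replicate 2 or the female library. Of the 14, 6 were under 1 RPKM in every epiblast library and could enter only through E9.5, and 10 more in the table were too low to be tested.

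Blood genes followed the same order between the libraries. All 6 tested were higher in replicate 1. Of these 2 were under 1 RPKM in every epiblast library, 15 more were too low to be tested, and the 21 genes in the table summed to 169 RPKM in E9.5 replicate 1 and 50.8 RPKM in replicate 2, against 7.95 to 8.79 RPKM in epiblast. Lmo2, a partner of blood and vessel factors, stood at 101 and 26.3 RPKM in E9.5 PGC, against 4.29, 1.76 and 1.67 RPKM in epiblast (3.96 ± 0.61, limma adjusted p = 0.00654). Tal1, the bHLH factor of blood precursors, stood at 23.4 and 2.82 RPKM and was listed at 0 in the epiblast. Its adjusted p of 0.022 became 0.0637 to 0.0731 when any 1 epiblast library was left out (limma). Gata1, which marks red cell precursors, was listed at 0 in all 5 libraries, and Runx1 at 0.348 and 1.85 RPKM in E9.5 PGC. The part of vessel and blood cells in the differences of other genes was not tested.

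Mesoderm lists differed in the order of the E9.5 libraries. Of 8 tested genes of paraxial and intermediate mesoderm 7 were higher in replicate 2, with a median difference of -1.28 (replicate 1 minus replicate 2), and of 13 of lateral plate and heart 10 were, with a median of -0.64. For 12 allantois genes the median was 0.15. Among the defining mesoderm markers several were close in both libraries. Tbx4, a T-box factor of the allantois, stood at 72.7 and 77.2 RPKM in E9.5 PGC, against 1.42, 0.946 and 0.661 RPKM in epiblast (5.26 ± 0.31, limma adjusted p = 0.000499). Prrx2, a homeobox gene of mesenchyme, stood at 116 and 120.0 RPKM against 0, 1.98 and 3.39 RPKM (5.66 ± 0.61, limma adjusted p = 0.00199). Foxf1, a forkhead factor of lateral mesoderm, stood at 24.6 and 29.5 RPKM and was listed at 0 in the epiblast (limma adjusted p = 0.00052). Twist1, a bHLH factor of mesenchyme, stood at 34.1 and 27.1 RPKM against 0.894, 0 and 0.282 RPKM (4.55 ± 0.40, limma adjusted p = 0.00112). Prrx1, another homeobox gene of mesenchyme, differed more between the libraries, at 15.1 and 3.16 RPKM in E9.5 PGC and 0 in the epiblast, and its adjusted p of 0.0127 became 0.051 without the female library (limma). The sum over the list of extraembryonic mesoderm and allantois was 721 and 662 RPKM in E9.5 PGC, against 28.5 to 33.5 RPKM in epiblast.

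Counts for these lists partly follow from the filter. Of 12 tested allantois genes 11 rose, of 13 of lateral plate and heart 11 rose, and of 19 of mesenchyme and matrix 16 rose, while 0 fell in each. However, 8 of the 12, 8 of the 13 and 9 of the 19 were under 1 RPKM in every epiblast library, as were 538 of all 12515 tested genes, and could enter only by being high at E9.5. A further 4, 5 and 7 genes of these lists were in the table but too low to be tested. Without 1 library, 9 or 10 allantois genes, 7 to 9 lateral plate genes and 12 or 13 mesenchyme genes rose, the 7 being without the female library. Genes of the streak and caudal end were led by the Cdx factors. Cdx2 stood at 59.6 and 29.1 RPKM in E9.5 PGC, against 0, 0.842 and 0 RPKM in epiblast (5.12 ± 0.48, limma adjusted p = 0.00131). Cdx1 stood at 42.8 and 152 RPKM and was listed at 0 in epiblast (limma adjusted p = 0.000999). Eomes, a T-box factor of the early streak, fell by 3.49 ± 0.34 (limma adjusted p = 0.00153).

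**Figure D3:**
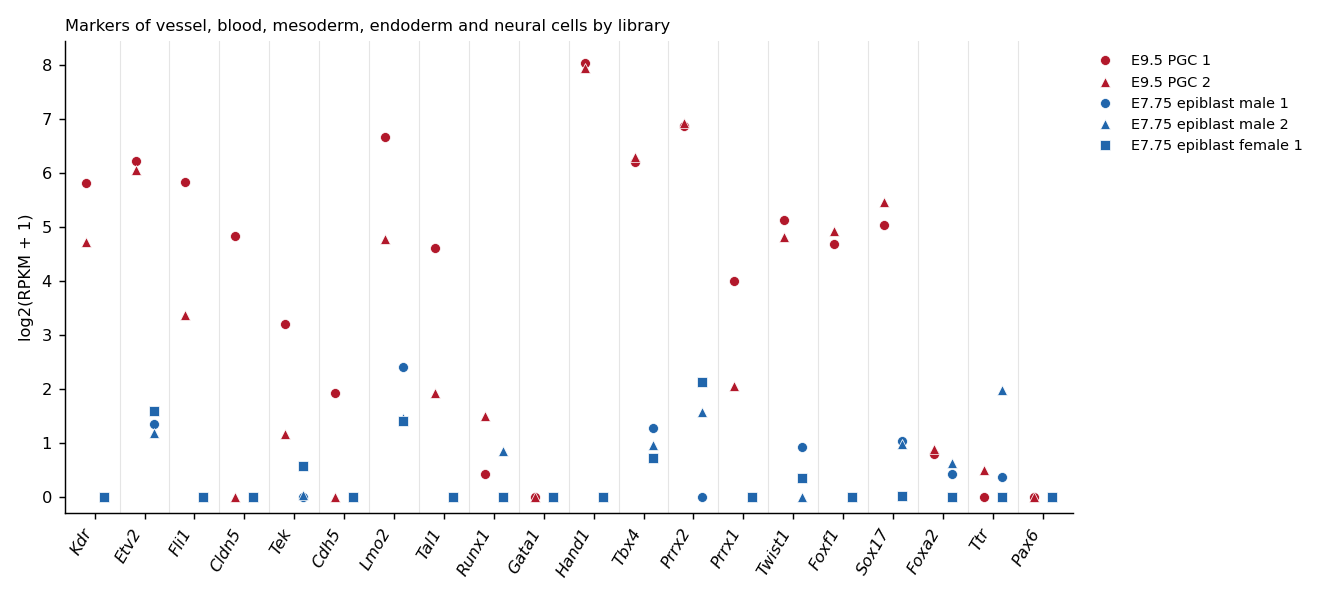
Level in log2(RPKM + 1) of 20 markers of vessel, blood, mesoderm, endoderm and neural cells, with 1 point per library, red for E9.5 PGC and blue for E7.75 epiblast. Fli1, Cldn5, Tek, Cdh5, Lmo2 and Tal1 lie well apart between the red circle (replicate 1) and triangle (replicate 2), while Hand1, Tbx4, Prrx2, Twist1 and Foxf1 nearly coincide.

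Single endoderm and neural markers were low or mixed. Of 16 tested genes of the gut endoderm list 7 rose and 2 fell, with a median of 1.75. Without 1 epiblast library 6 or 7 rose. Of the 16, 3 were under 1 RPKM in every epiblast library. Foxa2, a forkhead factor of endoderm, stood at 0.735 and 0.864 RPKM in E9.5 PGC, and Ttr, made by visceral endoderm, at 0 and 0.415 RPKM. Neither passed the filter. Sox17, an endoderm factor that also takes part in specifying PGC in humans, stood at 31.7 and 43.2 RPKM in E9.5 PGC, against 1.06, 0.976 and 0.0144 RPKM in epiblast (4.57 ± 0.44, limma adjusted p = 0.00139). The epithelial keratin gene Krt8 stood at 297 and 178 RPKM against 11.1, 22.6 and 17.2 RPKM (3.74 ± 0.34, limma adjusted p = 0.00119). Pax6, a neural factor, was listed at 0 in all 5 libraries, and Sox1 was not analysed here. In the neural list, 12 of 20 genes in the table were too low to be tested, 1 rose and 3 fell. When any 1 library was left out 1 fell, and 0 rose without E9.5 replicate 2 and 2 without replicate 1.

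Hox genes, which give cells their position along the body axis, were listed at or near 0 in epiblast, and part of them were detected in E9.5 PGC. In the E9.5 libraries 8 and 9 of the 35 were listed at 0. The 35 Hox genes in the table summed to 210 and 182 RPKM in E9.5 PGC, against 0, 0.696 and 0.0169 RPKM in epiblast. Of these 35, 18 passed the filter and 17 did not. All 18 were under 1 RPKM in every epiblast library, so that each had to be high at E9.5 to be tested, and each rose. Hoxb6 stood at 41.9 and 21.4 RPKM, Hoxb2 at 20.8 and 20.7 RPKM and Hoxd9 at 11.8 and 23.1 RPKM in E9.5 PGC, and all 3 were listed at 0 in the epiblast (limma adjusted p = 0.000792, 0.000562 and 0.00136). Levels were spread over the whole range of paralogues, as far as Hoxd13, at 8.94 and 3.11 RPKM, and Hoxc10, at 17.9 and 11.8 RPKM. The clusters were not alike: of the Hoxa genes in the table only Hoxa2 and Hoxa3 reached 1 RPKM in an E9.5 library, and Hoxa5, Hoxa6, Hoxa7, Hoxa9, Hoxa11 and Hoxa13 were listed at 0 in both. Hox genes of the other clusters outside the top 3 were named after their values were seen.

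**Figure D4:**
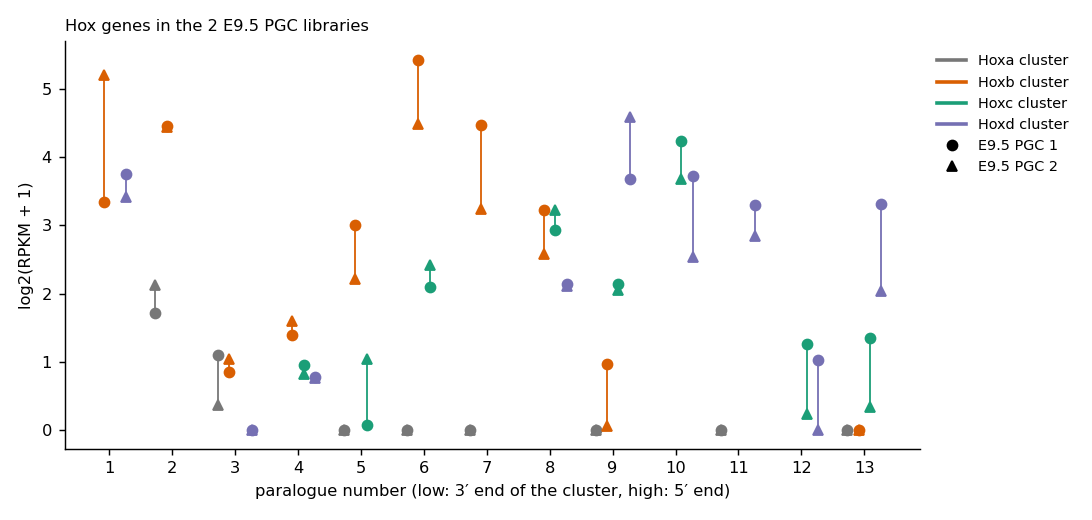
Level of the 35 Hox genes in the table in the 2 E9.5 PGC libraries, in log2(RPKM + 1), against the paralogue number, with colours for the clusters, circles for replicate 1 and triangles for replicate 2, joined by a line. Hoxb, Hoxc and Hoxd genes are detected up to high paralogue numbers and most Hoxa genes lie at 0.

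Imprinted genes, which are read from 1 parental copy, rose more often than they fell, as did all tested genes together. Of 27 tested 11 rose and 2 fell, beside 14.5% and 10.0% of all tested genes. Their median was 0.76, and 8 to 10 rose without 1 epiblast library. Cdkn1c, an inhibitor of cyclin-dependent kinases, stood at 1301 and 773 RPKM in E9.5 PGC, against 7.003, 14.02 and 3.39 RPKM in epiblast (6.96 ± 0.50, limma adjusted p = 0.000562). Phlda2, a growth-restraining gene of the placenta from the same imprinted region, stood at 429 and 231 RPKM against 0.418, 0.414 and 2.69 RPKM (7.34 ± 0.51, limma adjusted p = 0.00052). Both genes were higher in replicate 1, and the groups did not come near each other. Dlk1, a NOTCH-related membrane protein, stood at 123 and 39.9 RPKM against 1.009, 0.369 and 0.258 RPKM (5.56 ± 0.53, limma adjusted p = 0.00138). Snrpn, a splicing protein, fell, with 27.2 and 19.8 RPKM in E9.5 PGC against 273, 259.9 and 230.2 RPKM in epiblast (-3.40 ± 0.18, limma adjusted p = 0.000329). The parental origin of the RNA was not measured.

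The cadherins changed over between the groups. Cdh1, the epithelial cadherin, stood at 28.7 and 48.6 RPKM in E9.5 PGC, against 196, 174 and 179 RPKM in epiblast (-2.26 ± 0.23, limma adjusted p = 0.0016). Cdh2, the mesenchymal cadherin, stood at 25.7 and 36.8 RPKM against 4.54, 2.55 and 3.29 RPKM (2.86 ± 0.34, limma adjusted p = 0.00279). Cdh3, the placental cadherin, stood at 41.9 and 46.5 RPKM against 3.53, 3.19 and 2.35 RPKM (3.50 ± 0.29, limma adjusted p = 0.000891). In both E9.5 libraries Cdh1 was thus below, and the other cadherins above, the whole range of the epiblast. Among 24 tested genes of adhesion and junctions 8 rose and 9 fell, with 4 rising without E9.5 replicate 1 or 2. The tight junction genes Cldn3 and Cldn4 and the laminin receptor subunit Itga6 fell by 3.06 ± 0.34, 3.07 ± 0.33 and 2.54 ± 0.31 (limma adjusted p = 0.00221, 0.0019 and 0.00313). Cdh1 was named after its values were seen.

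Genes of migration and guidance followed with 10 of 23 rising and 3 falling, and 6 rising without E9.5 replicate 1 or 2. Kitlg, the ligand of Kit that guides PGC, stood at 67.5 and 37.6 RPKM in E9.5 PGC, against 1.81, 1.26 and 0.408 RPKM in epiblast (4.63 ± 0.44, limma adjusted p = 0.00137). Efna1, an ephrin ligand, stood at 276 and 237 RPKM against 10.98, 8.10 and 11.8 RPKM (4.52 ± 0.21, limma adjusted p = 0.000188). Its receptor gene Epha1 fell, with 1.68 and 1.37 RPKM against 18.1, 18.3 and 25.6 RPKM (-3.08 ± 0.31, limma adjusted p = 0.00162). Ligand and receptor of both pairs were thus measured in the same libraries, with Kit and Kitlg higher at E9.5 and Epha1 lower. Coro1a, an actin-binding protein, fell by 4.75 ± 0.43 (limma adjusted p = 0.0012).

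Genes of antigen processing and of the interferon response rose together. They serve to cut proteins into peptides for MHC class I and to answer viral RNA. Of 30 listed genes with a line 22 were tested, 20 rose and 0 fell, with a median of 3.32, and 17 or 18 rose without 1 library. Of the 22, 10 were under 1 RPKM in every epiblast library. Tapbp, the chaperone that loads peptides on MHC class I, stood at 172 and 236 RPKM in E9.5 PGC, against 3.30, 0.870 and 0.719 RPKM in epiblast (6.40 ± 0.45, limma adjusted p = 0.00052). Psmb8, a subunit of the immunoproteasome, stood at 52.6 and 64.0 RPKM and was listed at 0 in the epiblast (limma adjusted p = 0.000391). Parp12, an interferon-induced ADP-ribosyltransferase, stood at 32.1 and 46.8 RPKM and was listed at 0 there too (limma adjusted p = 0.00052). Psme1, part of the proteasome activator that interferon induces, stood at 477 and 472 RPKM against 29.7, 23.6 and 21.1 RPKM (4.21 ± 0.18, limma adjusted p = 0.000159). For each of these genes both E9.5 libraries lay above all epiblast libraries. B2m, the light chain of MHC class I, stood at 10.1 and 8.41 RPKM against 3.80, 5.97 and 2.44 RPKM and did not pass (limma adjusted p = 0.0942).

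The promoters of this list were searched on either strand for GAAA, a gap of 2 bases of any kind, and GAAA again, the core of the element through which interferon factors act. The motif was chosen after the values were seen, and Dtx3l and Psme1 were named then as well. It occurs in 3.92% of the 33469 promoters of the table, and in 11 of the 17 promoters found for the genes that rose, which is 64.7%. Among all 23 promoters found for the list, whether the gene rose or not, 15 hold it, or 65.2%, so the members that rose do not differ in this from the list as a whole. A match is a description of the letters and not a site of binding. The promoters of 4 genes that rose are shown, with the motif in capitals, in the same RefSeq build and window as above.
Tapbp, chr20:4967828-4968127, minus strand: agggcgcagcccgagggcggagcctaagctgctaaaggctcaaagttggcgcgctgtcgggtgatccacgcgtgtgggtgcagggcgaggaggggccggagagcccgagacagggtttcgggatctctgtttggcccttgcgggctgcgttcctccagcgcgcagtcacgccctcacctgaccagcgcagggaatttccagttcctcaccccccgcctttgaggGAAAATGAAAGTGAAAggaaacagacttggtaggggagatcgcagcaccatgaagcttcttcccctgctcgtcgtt
Psmb8, chr20:4656982-4657281, minus strand: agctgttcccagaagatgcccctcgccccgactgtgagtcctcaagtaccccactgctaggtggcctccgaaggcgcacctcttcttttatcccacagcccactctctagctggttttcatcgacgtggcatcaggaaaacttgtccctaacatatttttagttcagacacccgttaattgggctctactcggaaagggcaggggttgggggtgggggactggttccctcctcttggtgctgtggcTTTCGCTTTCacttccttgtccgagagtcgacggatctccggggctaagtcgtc
Parp12, chr4:68850492-68850791, minus strand: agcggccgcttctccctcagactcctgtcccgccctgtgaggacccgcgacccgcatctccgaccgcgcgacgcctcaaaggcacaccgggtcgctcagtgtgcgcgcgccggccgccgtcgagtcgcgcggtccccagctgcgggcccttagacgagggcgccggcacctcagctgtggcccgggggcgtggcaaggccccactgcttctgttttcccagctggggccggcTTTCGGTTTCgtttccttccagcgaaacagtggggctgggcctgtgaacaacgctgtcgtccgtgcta
Dtx3l, chr11:78319975-78320274, plus strand: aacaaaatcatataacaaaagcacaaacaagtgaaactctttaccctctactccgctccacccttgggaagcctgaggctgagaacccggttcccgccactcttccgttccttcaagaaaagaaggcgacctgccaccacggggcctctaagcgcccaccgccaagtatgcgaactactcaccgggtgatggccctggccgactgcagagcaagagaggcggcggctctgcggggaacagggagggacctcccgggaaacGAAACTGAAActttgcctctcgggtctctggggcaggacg
In Tapbp the motif occurs at 2 overlapping places, which begin 26 and 20 bases before the start. It begins 4 bases before the start in Psmb8, 18 bases before it in Parp12 and at base 11 after it in Dtx3l. In Psmb8 and Parp12 it reads on the opposite strand. Dtx3l, a ubiquitin ligase induced by interferon, stood at 4.43 and 4.59 RPKM in E9.5 PGC, against 0.254, 0.620 and 0.168 RPKM in epiblast (2.05 ± 0.34, limma adjusted p = 0.00797).

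Glycolysis genes fell more often than they rose. Of 21 tested genes of glycolysis and pyruvate fate 2 rose and 11 fell, with a median of -0.84. The number that fell was 7 without male replicate 2, 6 without the female library, and 8 to 13 in the other runs. Pgk1, a kinase of glycolysis, stood at 569.7 and 494 RPKM in E9.5 PGC, against 1435, 1655 and 1506 RPKM in epiblast (-1.52 ± 0.14, limma adjusted p = 0.00119). Ldhb, a lactate dehydrogenase subunit, rose by 1.30 ± 0.17 (limma adjusted p = 0.00395). Genes of oxidative phosphorylation were close to the median of all genes, with 2 of 27 rising, 3 falling and a median of -0.07. Without 1 library 0 to 3 rose and 0 to 9 fell. Rescaled to the same median, 0 rose and 7 fell, while with quantile normalization 7 rose and 3 fell, so the direction depends on the scaling.

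Of 25 tested genes of lysosome and autophagy 10 rose and 3 fell, with a median of 0.61, and 6 rose without E9.5 replicate 2. Lamp2, a membrane protein of lysosomes, stood at 108 and 128 RPKM in E9.5 PGC, against 18.6, 23.5 and 19.1 RPKM in epiblast (2.48 ± 0.19, limma adjusted p = 0.000641). Tfe3, a transcription factor of lysosome genes, fell, with 1.86 and 7.61 RPKM against 32.7, 26.1 and 34.0 RPKM (-2.68 ± 0.47, limma adjusted p = 0.0097). The factor gene and Lamp2 thus moved in opposite directions. Genes of ribosomes and translation fell in part, with 10 of 24 and a median of -0.55. The count was 5 without the female library, 6 without male replicate 1, and 14 without E9.5 replicate 1.

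Single cyclin genes changed in both directions. Ccnd2, cyclin D2, stood at 296 and 239.7 RPKM in E9.5 PGC, against 16.1, 23.6 and 16.4 RPKM in epiblast (3.78 ± 0.22, limma adjusted p = 0.000469). Ccnd1, cyclin D1, stood at 20.8 and 33.7 RPKM against 86.0, 77.6 and 77.9 RPKM (-1.56 ± 0.22, limma adjusted p = 0.00515). Ccne1, cyclin E1, stood at 36.7 and 42.7 RPKM against 183, 209 and 145 RPKM (-2.13 ± 0.19, limma adjusted p = 0.00112). The D cyclins thus moved in opposite directions in both libraries. With Cdkn1c, 3 of 22 tested G1 genes rose and 4 fell, beside 14.5% and 10.0% of all tested genes. Of 31 genes of replication and mitosis 3 rose and 3 fell, with a median of 0.01. When any 1 epiblast library was left out, 2 of these rose and 1 fell. Pcna, the replication clamp, stood at 547 and 432 RPKM in E9.5 PGC, against 543, 635 and 467 RPKM in epiblast.

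Stress-response genes split by kind. The 3 metallothionein genes Mt1, Mt1m and Mt2A, which bind zinc and copper, fell, with 2.69 to 8.91 RPKM in E9.5 PGC against 172 to 357 RPKM in epiblast. Their differences were -5.32 to -5.44 (limma adjusted p = 0.000183 to 0.000499). They are members of the same gene family, and how reads were divided among them is not given. Hspb1, a small heat shock protein, stood at 133 and 201 RPKM against 0, 0.820 and 1.62 RPKM (6.61 ± 0.46, limma adjusted p = 0.00052). Fos, an immediate early gene that the handling of cells can induce, stood at 86.5 and 117 RPKM against 0.950, 0.987 and 4.52 RPKM (5.19 ± 0.51, limma adjusted p = 0.00149). Of 16 immediate early and heat stress genes 10 rose, with 4 without E9.5 replicate 1 and 6 without replicate 2. The part of tissue handling in these values was not tested.

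The 12 largest rises under the rule for named genes were Hand1, Tfap2c, Phlda2, Msx2, Cdkn1c, Msx1, Hspb1, Tapbp, Cdx1, Tspan8, Rgs5 and Psmb8, so that germ line, BMP target, imprinted and antigen-processing genes all appeared among them. Tspan8, a tetraspanin of the cell surface, stood at 198 and 208 RPKM in E9.5 PGC, against 2.71, 2.58 and 0.635 RPKM in epiblast (6.19 ± 0.40, limma adjusted p = 0.00052). Rgs5, a regulator of G protein signalling known from pericytes, stood at 102 and 77.9 RPKM against 0, 0 and 1.22 RPKM (6.11 ± 0.45, limma adjusted p = 0.000641). The 12 largest falls were Tdgf1, AY172581.19, Slc7a3, Sncb, Dnmt3b, Mt2A, Mt1m, Mt1, AC135285.4, Coro1a, Dnmt3a and Cyct. AY172581.19 and AC135285.4 are sequence codes in place of gene symbols, which the rule did not catch. Both were listed at 0 in both E9.5 libraries, and what kind of RNA they are was not examined. AY172581.19 was uneven between replicates at other stages. It was at 0 and 497 RPKM in E10.5 PGC, and at 289, 55.0 and 0 RPKM in E7.25 epiblast. The call of AC135285.4 ended without E9.5 replicate 1 or 2 (limma adjusted p = 0.0849 and 0.0835). Sncb, which encodes beta-synuclein, stood at 0 and 1.10 RPKM against 87.7, 74.2 and 75.0 RPKM (-5.78 ± 0.35, limma adjusted p = 0.000499). Cyct, the testis form of cytochrome c, fell by 4.26 ± 0.31 (limma adjusted p = 0.000608).

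Genes of later germ cells were mostly low. Of 15 tested genes of gonadal germ cells and the piRNA pathway 2 rose and 1 fell, and 0 or 1 rose without 1 library. Ddx4, an RNA helicase of germ cells, stood at 2.46 and 0.0419 RPKM in E9.5 PGC, against 3.98, 4.99 and 8.71 RPKM in epiblast (-1.80 ± 0.59, limma adjusted p = 0.0679). Dazl, an RNA-binding protein that licenses PGC for gametogenesis, was at 0.310 and 0.0451 RPKM in E9.5 PGC and at 0, 0 and 0.851 RPKM in epiblast, and reached 394 and 369 RPKM at E12.5. Both genes were named after their values were seen.

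Sex was labelled in the epiblast only, and the Y-linked genes were read in all 5 libraries. Eif2s3y stood at 16.4 and 122 RPKM in E9.5 PGC, against 166 and 145 RPKM in the male and 0.140 RPKM in the female epiblast. Kdm5d stood at 0.550 and 7.11 RPKM in E9.5 PGC, against 2.76 and 3.37 RPKM in the male and 0 RPKM in the female epiblast. Both E9.5 libraries thus held RNA of Y-linked genes, and replicate 2 held more of it than replicate 1. None of the 4 tested sex-linked genes passed, with limma and Benjamini-Hochberg adjustment over all genes. The epiblast group holds both sexes, which spreads sex-linked values within it, so this test cannot decide whether they differ at E9.5.

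The levels of E10.5 PGC show which of these differences were still present 1 day later. Their depth was 20.7% and 22.1% of that of the female epiblast library, so that low values there are less certain. Of the 1815 genes that rose, 804 had both E10.5 libraries at 50% or more of the E9.5 mean, and 464 had both at or below the highest epiblast library. Of the 1255 genes that fell, 904 had both E10.5 libraries at most at 2 times the higher E9.5 value, and 283 had both at or above the lowest epiblast library. Among the 20 antigen-processing and interferon genes that rose, 18 were at 50% or more at E10.5. Tapbp, for example, stood at 172 and 236 RPKM at E9.5 and at 209 and 274 RPKM at E10.5. Among the 11 lateral plate and heart genes that rose 0 were at 50% or more. Of these 11, 10 were listed at 0 in both E10.5 libraries, beside 180 of the 1815 genes that rose. Of all tested genes, 13.1% and 13.3% were at 0 in the E10.5 libraries, against 4.75% and 3.07% in the E9.5 libraries.

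Of 9 PGC identity genes that rose 7 were at 50% or more at E10.5, of 14 BMP response targets 3 were, and of 7 vessel genes 1 was. The lists of mesoderm were not alike: lateral plate genes summed to 6.75 and 0.0994 RPKM at E10.5, and paraxial and intermediate genes to 235 and 211 RPKM, against 131 and 165 RPKM at E9.5. Tcf15, a bHLH factor of paraxial mesoderm, made up most of that sum, with 234 and 207 RPKM at E10.5. Tfap2c stood at 206 and 287 RPKM at E9.5, 366 and 334 RPKM at E10.5, and 349.5 and 337 RPKM at E12.5. Etv2, at 73.9 and 65.8 RPKM at E9.5, was listed at 0 in both libraries of E10.5 and of E12.5. Foxf1 and Kdr were listed at 0 in both E10.5 libraries as well. Of 18 Hox genes that rose, 1 kept 50% or more of its level and 7 were listed at 0 in both E10.5 libraries. Of all 1815 genes that rose, 804 kept 50% or more and 180 were listed at 0 in both. Cdkn1c, at 1301 and 773 RPKM at E9.5, stood at 11.3 and 7.56 RPKM at E10.5, close to its epiblast level of 3.39 to 14.02 RPKM. Utf1, at 283 and 274 RPKM at E9.5, stood at 1982 and 1861 RPKM at E10.5, above all 3 epiblast libraries. Dnmt3b stayed low, at 7.52 and 15.8 RPKM.

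**Figure D5:**
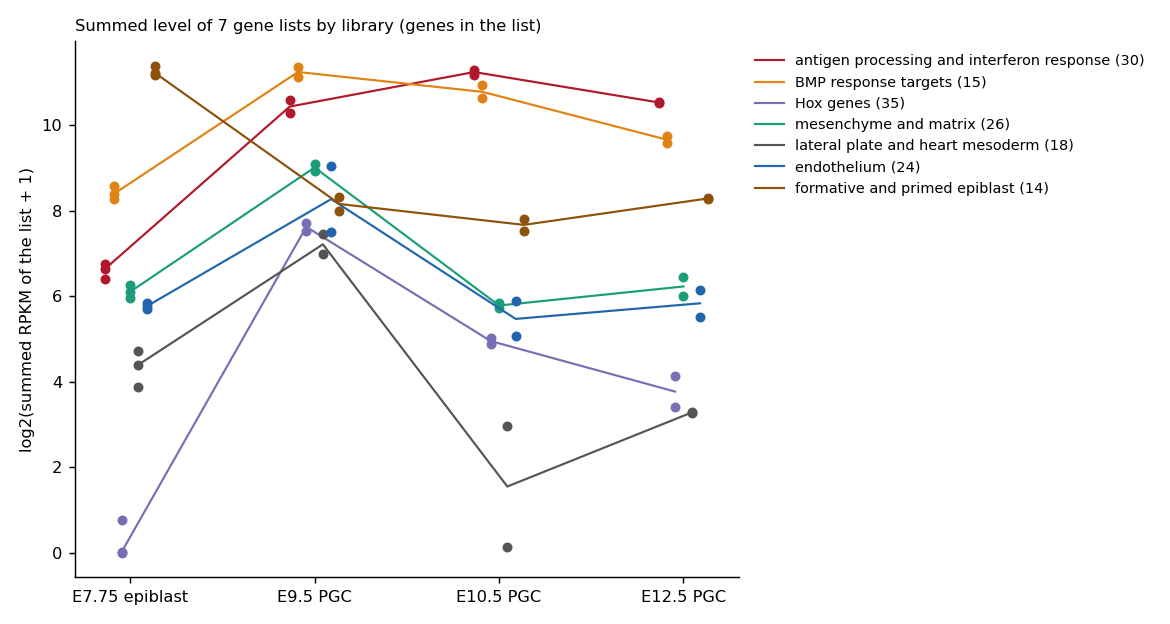
Summed RPKM of 7 gene lists, as log2(sum + 1), with 1 point per library and lines through the medians, for E7.75 epiblast and for PGC of E9.5, E10.5 and E12.5. Lateral plate, mesenchyme, vessel, Hox and BMP response lists peak at E9.5. The list of antigen processing and interferon response stays high after it, and the formative epiblast list is highest at E7.75 among the stages shown.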

How the data were processed

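RNA was extracted with PicoPure and amplified with SMART-Seq v4, per the labels' protocols. The values deposited by the authors are RPKM, in 1 table of the series with 1 column for each of the 18 libraries; columns of other samples numbered 0. Tools listed in the submitters' processing notes, whose roles are not stated, were Cufflinks 2.2.1, TopHat2 2.1.0, cutadapt 1.14 and bcl2fastq 2.18.0.12, with genome rn6. Annotation, strand handling and multi-mapping reads: not given in the sources used here, so gene families and overlapping genes are uncertain. The table holds no read counts, and RPKM divides by each library's mapped total, so abundant genes can shift the rest. Depth was estimated as the inverse of the most common ratio of values under 50 RPKM to those of the female epiblast library.

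From these values, log2(RPKM + 1), with a pseudocount of 1, was fitted with limma 3.58.1 in R 4.3.3 on the 5 libraries alone (3 residual degrees of freedom), with a variance that follows the mean, two-sided, with Benjamini-Hochberg adjustment over the 12515 genes tested and a threshold of 0.05. The fit was tested on simulated data. For the 507 symbols with several lines the line of highest mean was used. Of 874 genes in the 41 lists, 45 had no line and were not analysed here. The libraries, lists, tests and named genes were chosen with earlier results of these data known. By rule the text draws on Prdm1, Prdm14, Tfap2c, Nanos3, Dppa3 and Pou5f1, the 12 largest rises and falls (at least 5 RPKM in the higher group, no overlap, small RNA and uncharacterised symbols left out), the 3 largest rises and falls and the highest gene that did not pass in each list, and defining markers of neighbouring cells; Bambi, Cdh1, Dnd1, Dnmt1, Dtx3l, Fgf5, Id1, Id2, Id3, Ifitm3, Kdm5d, Kit, Klf5, Nanog, Psme1, Tet1, Uhrf1, Ddx4, Dazl, the further Hox genes and the E10.5 and E12.5 values shown were added after their values were seen. Identifiers matching the reference table numbered 0, so promoters were matched by symbol. No replicates shared more than 0.00756% identical values. Figures were drawn with matplotlib 3.10.9.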

Additional observations from a re-analysis of the deposited data

How the results depend on the processing

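Of 644 tested genes of the lists and the named genes, 318 passed. Of these, 175 passed under each of the 15 alternatives in which they were tested, and 189 in every run that left out 1 library. The filter of at least 5 RPKM in 2 libraries did not test every listed gene. Leaving out 1 library gave 1499 to 2345 genes that passed, 947 to 1166 that rose and 552 to 1179 that fell. With the same median in all libraries 1942 genes fell instead of 1255. With quantile normalization 2 listed genes turned: Atp5b to 0.48 and Atp5c1 to 0.29. The cause was not tested. With male epiblast only and the replicate number as a block, 1385 passed, 900 rose and 485 fell. The differences between replicates 1 and 2 in E9.5 PGC and in male epiblast were nearly uncorrelated across genes (r = -0.041). With 1 pair per group, this cannot decide whether same-numbered libraries were prepared together. The other settings left the counts within 1.5 times. With 2 E9.5 libraries, 3 residual degrees of freedom and no read counts, small changes may have gone undetected, and a gene that did not pass is not shown to be equal in the groups.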
